A study of Mus musculus with 8 samples.

Results

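The 10 transcription factor genes described here, known from blood capillaries and from the patterning of organs, were followed in lymphatic and blood vascular endothelial cells of the mouse colon. They are Tcf15, Meox1, Meox2, Mecom, Foxf1, Foxo1, Foxp1, Epas1, Nkx2-3 and Tbx3, and every probe set that the array annotation ties to exactly 1 of these symbols was taken. That gave 31 probe sets for 10 genes, of 34945 probe sets for 18193 genes on the array. Lymphatic endothelium (LEC) was measured on 4 arrays and blood vascular endothelium (BEC) on another 4, with cells sorted by flow cytometry from the colons of 4 untreated C57BL/6J mice aged 8 weeks, with 1 LEC and 1 BEC sample per mouse. Mice 1 to 3 were female and mouse 4 was male, and no group carried a transgene, a deletion or an agent. The antibodies of the sort were against CD31, podoplanin and CD45.2, so podoplanin separates the groups by construction.

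These factors belong to several families. TCF15, a basic helix-loop-helix protein, forms a heterodimer with the homeobox protein MEOX2 in mouse capillary endothelium, where the pair is known to raise genes of fatty acid uptake, and MEOX1 is the close paralogue of MEOX2. EPAS1 is the oxygen-regulated subunit HIF-2α, and FOXO1, held in check by insulin and growth factor signalling through AKT, is known to restrain endothelial growth. MECOM (EVI1) is a zinc finger protein with a role in blood stem cells and arterial endothelium. FOXF1 and NKX2-3 are known from the gut mesenchyme as well as from endothelium, and mice without NKX2-3 lack the addressin MAdCAM-1 in gut vessels. FOXP1 is a forkhead repressor found in many tissues, and TBX3 is a T-box repressor of limb, heart and mammary development.

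The sort was checked first. All 8 blood vascular markers with a probe set (Flt1, Nrp1, Vwf, Aplnr, Selp, Plvap, Notch4 and Sox17) were lower in LEC, and all 6 lymphatic ones (Prox1, Lyve1, Flt4, Pdpn, Reln and Mmrn1) were higher. The labelled cell types thus matched these markers, in lists chosen with earlier results of these data known. Pdpn encodes podoplanin, itself used in the sort. The background level of an array, taken from control probe sets for bacterial transcripts, lay between 3.43 and 4.88 on the log2 scale. Other cell types left signal on some arrays. The summed linear signal of 12 epithelial genes was 375 to 7325 in LEC and 615 to 18148 in BEC, with 6 to 11 and 9 to 12 of them above background, and replicate 3 was the highest of both groups. The sum of 12 fibroblast genes was 475 to 8145 in LEC and 259 to 409 in BEC, with 5 to 10 and 5 to 7 above background, and LEC replicates 2 and 4 were the highest. The sum of 12 smooth muscle and pericyte genes was 478 to 1450 in LEC and 1147 to 1764 in BEC. Leukocyte and enteric nerve genes stayed at or below 265 in every sample (7 and 6 genes).

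Each gene was tested at the probe set with the highest mean signal, and the difference is LEC minus BEC on the log2 scale. Of the 10 genes, 4 were lower in LEC (Tcf15, Mecom, Foxf1 and Epas1), 0 were higher and 6 did not pass the test at an adjusted p under 0.05 (limma, adjusted over 13259 genes), while 4.07% of all genes tested were called, 2.31% lower and 1.76% higher. At an unadjusted p under 0.05 the number was 5, with Tbx3 added. The median difference of the 10 genes was -1.51, beside 0.08 over all genes tested. All 10 genes passed the filter on dim signals, and 26 of their 31 probe sets did. That filter needs 4 of the 8 arrays, so bright BEC arrays alone can carry a probe set through it. Nkx2-3 probe set 1425827_at was kept through BEC alone, and Mecom 1438325_at through BEC and LEC replicate 3. In sorted bulk samples fewer cells of a type and less RNA per cell cannot be told apart.

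**Figure D1:**
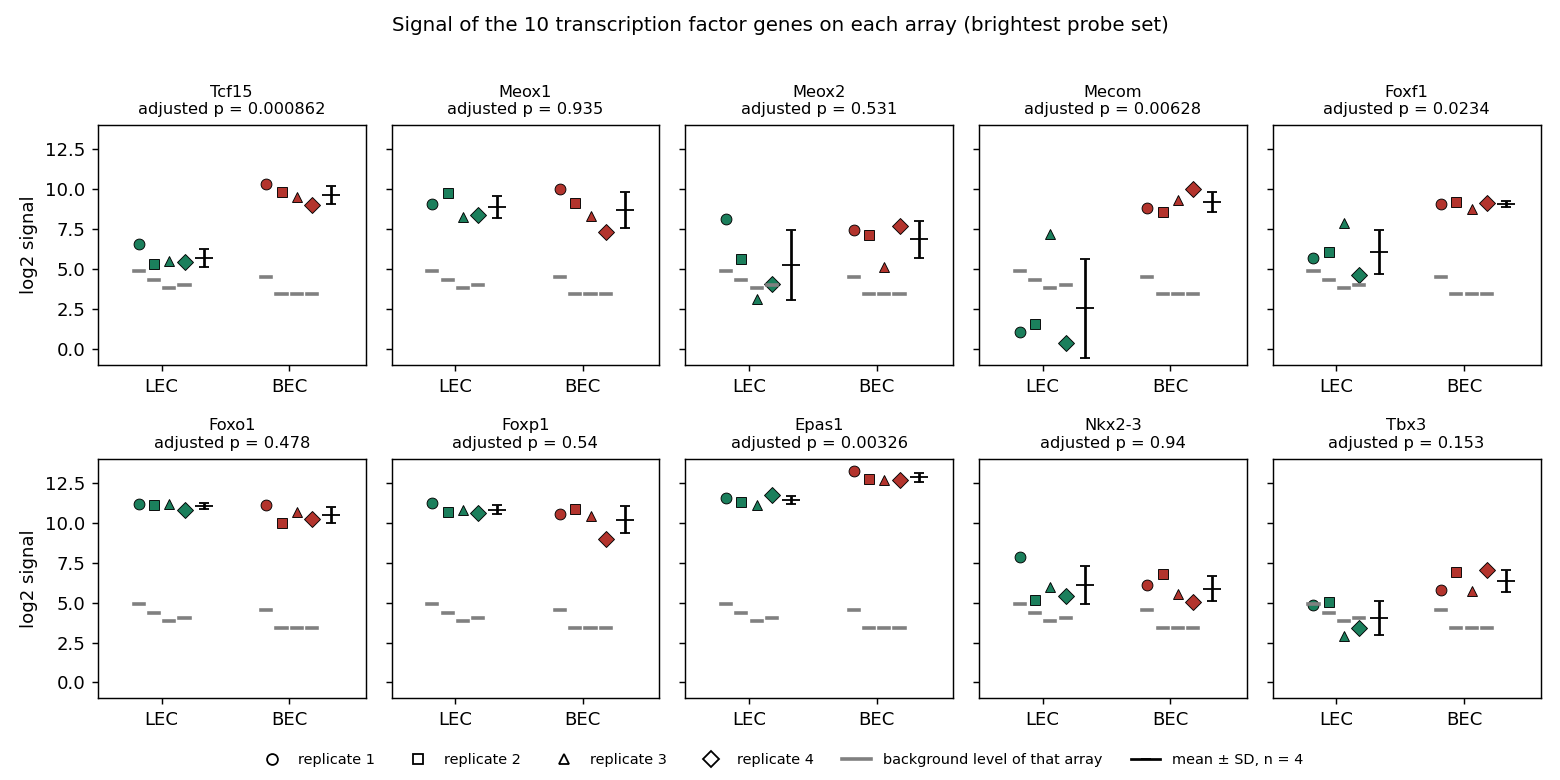
Log2 signal of the brightest probe set of each gene (vertical axis) on the 4 LEC and 4 BEC arrays (horizontal axis), with marker shapes for replicates, grey bars for the background level of that array and black bars for the mean ± SD. For Tcf15, Mecom, Foxf1, Epas1 and Tbx3 every LEC value lies under every BEC value, and LEC replicate 3 stands at 7.17 for Mecom.

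Tcf15, the capillary helix-loop-helix factor, was clearly lower in LEC. Its single probe set (1449592_at) gave log2 signals of 6.57, 5.33, 5.51 and 5.43 in LEC of mice 1 to 4, against 10.35, 9.81, 9.48 and 9.01 in BEC. All 4 LEC values lay under all 4 BEC values, and all 8 were above background. The difference was -3.96 ± 0.56 (SE), a 15.5-fold lower signal in LEC (limma, adjusted p = 8.62e-04), and within the mice it ran from -4.49 in mouse 2 to -3.58 in mouse 4. Tcf15 signal thus lay above background in LEC, and was lower than in BEC in all 4 mice. The part of blood vascular cells in that LEC signal was not tested.

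Its partner Meox2 was more variable. The brighter probe set (1424233_at) read 8.15, 5.61, 3.13 and 4.09 in LEC, against 7.42, 7.13, 5.16 and 7.70 in BEC, with LEC replicate 3 below background. The groups overlapped, with LEC replicate 1 above every BEC array and LEC replicate 2 above BEC replicate 3. The difference of -1.61 did not pass the test (95% interval -3.81 to 0.59, limma, adjusted p = 0.531), and it was -2.58 without LEC replicate 1 (adjusted p = 0.156) and -0.91 without LEC replicate 3 (adjusted p = 0.738). A second probe set (1424234_s_at), whose suffix marks probes that may match further transcripts, read 5.81, 4.96, 0.02 and 2.62 in LEC, against 7.32, 8.61, 6.10 and 8.34 in BEC. Its groups did not overlap, all 4 mice had the lower value in LEC, and 2 of the 4 LEC arrays were below background. Its fitted difference of -4.24 ± 1.15 stood just outside the threshold (limma over all 23980 kept probe sets, adjusted p = 0.0617).

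Meox1, the paralogue of Meox2, was bright in both cell types. Its single probe set (1417595_at) read 9.09, 9.77, 8.28 and 8.40 in LEC, against 10.02, 9.15, 8.31 and 7.32 in BEC. The groups overlapped, with LEC higher in 2 mice and lower in the other two. The difference was 0.19, with a 95% interval of -1.12 to 1.49 (limma, adjusted p = 0.935), and its sign turned with equal array medians (-0.09), with equal hybridisation controls (-0.20), without LEC replicate 2 (-0.11) and without BEC replicate 4 (-0.27).

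Genes of fatty acid uptake, which TCF15 and MEOX2 are known to raise in mouse heart capillaries, were then read from a list of 13 that holds both factors themselves. Of 12 tested, 4 were lower and 0 higher in LEC, with a median difference of -2.57. Over all genes tested the share called lower was 2.31%. Besides Tcf15 the lower ones were Cd36, a fatty acid translocase, Fabp4, a fatty acid binding protein, and Rbp7, a retinol binding protein of capillaries. Cd36 read 4.82, 7.80, 7.37 and 9.72 in LEC, against 13.13, 12.93, 12.49 and 12.75 in BEC, at least 41.7-fold lower in LEC (limma, adjusted p = 7.79e-04). "At least" is used here and below where an array of the dimmer group was under its background level, which then stood in for the value. Fabp4 averaged 9.31 ± 1.27 in LEC and 13.23 ± 0.55 in BEC (SD, n = 4 each; 15.2-fold lower, limma, adjusted p = 5.74e-04). Rbp7 was 3.31-fold lower (adjusted p = 0.0196), but missed the threshold under 5 of 18 alternatives (adjusted p up to 0.121). Fabp5 (-3.30, adjusted p = 0.0559, under 0.05 in 5 of 18 alternatives), Pparg (-2.75, adjusted p = 0.143) and the lipase gene Lpl (-2.48, adjusted p = 0.309) had LEC values under BEC on average without passing the test. The other uncalled genes went both ways. Angptl4, Meox2 and Gpihbp1 differed by -2.67, -1.61 and -1.21, and the fatty acid transport genes Slc27a1 and Slc27a4 by 0.04 and 0.73.

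Mecom had the largest fitted difference of the 10 genes. Its bright probe set (1438325_at) read 1.07, 1.54, 7.17 and 0.38 in LEC, against 8.83, 8.57, 9.33 and 10.04 in BEC. The groups did not overlap, and 3 of the 4 LEC arrays were below background while replicate 3 was well above it. The signal was at least 17.1-fold lower in LEC (fitted difference -6.65 ± 1.23, limma, adjusted p = 0.00628), and at least 27.6-fold lower without LEC replicate 3. LEC replicate 3 also carried the highest epithelial sum of the LEC arrays, 7325 against 375 to 1665 on the other three, while its blood vascular sum, 291, lay within the range of the other LEC arrays (182 to 418). In BEC, replicates 1 to 4 had epithelial sums of 615, 664, 18148 and 4868, beside Mecom signals of 8.83, 8.57, 9.33 and 10.04. The part of other cells in these Mecom values, that of LEC replicate 3 included, was not tested.

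The other probe sets of Mecom showed no such pattern. They read -1.34 to 1.39 and -1.74 to 1.55 in LEC, against -1.01 to 5.46 and -2.36 to 1.83 in BEC, and only BEC replicate 2 on the first of them (5.46) was above background. Neither passed the filter. The annotation ties both dim probe sets to reference mRNAs of the gene and lists no sequence for the bright one, so which transcript it reads is not known here. RefSeq (GRCm38.p6) gives Mecom start sites far apart on the minus strand, which is why both windows are shown, each from 250 bases before to 50 after the start. Capitals mark the E-box letters CANNTG, the kind of site that helix-loop-helix dimers such as those of TCF15 bind, and CGTG, the core of the hypoxia response element, on either strand.
Mecom chr3:30509710-30510009, minus strand: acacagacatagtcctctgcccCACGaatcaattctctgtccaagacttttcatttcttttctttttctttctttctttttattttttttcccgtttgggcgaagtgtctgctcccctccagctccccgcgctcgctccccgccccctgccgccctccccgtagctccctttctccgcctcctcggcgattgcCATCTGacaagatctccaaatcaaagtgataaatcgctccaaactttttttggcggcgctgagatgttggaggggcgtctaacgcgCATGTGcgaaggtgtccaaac
Mecom chr3:30013155-30013454, minus strand: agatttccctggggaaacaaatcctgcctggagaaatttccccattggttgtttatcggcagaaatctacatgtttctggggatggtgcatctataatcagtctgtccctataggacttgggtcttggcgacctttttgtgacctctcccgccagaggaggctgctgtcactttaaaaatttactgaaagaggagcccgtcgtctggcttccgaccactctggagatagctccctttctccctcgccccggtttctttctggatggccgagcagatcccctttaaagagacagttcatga
The first window holds 2 E-boxes and 1 CGTG and the second holds 0 of either. CANNTG is found in 72.3% and CGTG in 61.7% of all 32851 windows of this length in the table (the motifs can overlap in CACGTG), so their presence is common. The 5 of the 10 genes with an entry had 8 windows, and 7 held each motif. These matches are letters in a window, not sites shown to be bound.

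Prdm16, the paralogue of Mecom, went the same way. It averaged 7.49 ± 0.49 in LEC and 10.10 ± 0.61 in BEC (SD, n = 4 each) and was 6.10-fold lower in LEC without overlap (limma, adjusted p = 0.00628, and 0.0821 with the mean of all its probe sets). Of 15 arterial genes, read because both factors are known from arterial endothelium, 7 were lower and 0 higher in LEC, with a median of -1.31. The share of all genes tested that was called lower was 2.31%. Nrp1, Notch4 and Sox17 of this list were also blood vascular markers in the check of the sort. Sema3g, a secreted semaphorin, was at least 111-fold lower and Cxcr4, the CXCL12 receptor gene, at least 93.0-fold. Of these, Sema3g passed the filter through BEC alone. Nrp1, a semaphorin and VEGF co-receptor gene, was at least 82.7-fold lower and Notch4, a Notch receptor gene, at least 30.3-fold. The other 3 called were Sox17, Gja5 and Hey2, at least 7.85-fold lower or more, of which Gja5 and Hey2 lost their call under 2 and 3 of 18 alternatives (adjusted p up to 0.0562 and 0.0547), all leaving out 1 BEC array. Gja4, Efnb2, Dll4, Unc5b, Jag1, Hey1, Notch1 and Bmx did not pass the test, with differences between -1.31 and 1.63.

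Epas1, which encodes HIF-2α, was bright in both cell types and lower in LEC at each of its probe sets. The brighter one (1435436_at) read 11.54, 11.29, 11.10 and 11.73 in LEC, against 13.24, 12.75, 12.65 and 12.67 in BEC. The groups did not overlap, and the difference of -1.41 ± 0.24 meant a 2.66-fold lower signal in LEC (limma, adjusted p = 0.00326). The adjusted p was 0.198 without the intensity trend and at most 0.0146 under the other alternatives. The second probe set (1449888_at) read 8.29, 8.42, 8.43 and 8.09 in LEC, against 11.73, 10.83, 11.36 and 11.20 in BEC. It gave a larger difference, -2.97 ± 0.36, or 7.84-fold (limma over all kept probe sets, adjusted p = 2.56e-04). Both had the lower value in LEC in all 4 mice, and the size of the difference depended on the probe set.

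The genes around HIF-2α mostly did not pass the test. Its paralogue Hif1a read 7.25 ± 0.70 in LEC and 8.58 ± 0.72 in BEC (SD, n = 4 each), a difference of -1.33 (limma, adjusted p = 0.303). Its groups all but touched, with the highest LEC and the lowest BEC value both at 7.66. The dimer partner Arnt differed by -0.68 (adjusted p = 0.717). Of 19 hypoxia response genes tested, 2 were lower and 0 higher in LEC, with a median of -0.83. The shares over all genes tested were 2.31% lower and 1.76% higher. Those 2 genes were Flt1, the VEGF receptor 1 gene (at least 87.3-fold, limma, adjusted p = 4.10e-05), and Edn1, the endothelin 1 gene (at least 11.2-fold, limma, adjusted p = 0.00221). Flt1 was also a blood vascular marker in the check of the sort. The other 17 did not pass, with differences between -2.30 (Ankrd37) and 1.57 (Egln3). Among the glycolysis genes, Ldha differed by -1.33 (adjusted p = 0.147, and 0.0218 without LEC replicate 3), the glucose transporter gene Slc2a1 by -0.10 and Pgk1 by 0.03. The stress gene Ddit4 differed by 0.57 and Bnip3, a mitophagy gene, by -0.83. The HIF prolyl hydroxylase genes Egln1, Egln2 and Egln3 differed by -1.24, 0.00 and 1.57.

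Foxf1 was lower in LEC at 1 of its 2 probe sets. The brighter one (1434939_at) read 5.67, 6.04, 7.90 and 4.60 in LEC, against 9.08, 9.17, 8.77 and 9.15 in BEC, with no overlap and a narrow BEC spread (SD 0.19, against 1.38 in LEC). The signal was 7.94-fold lower in LEC (difference -2.99 ± 0.68, limma, adjusted p = 0.0234). The mouse differences ran from -4.55 in mouse 4 to -0.87 in mouse 3, whose LEC array was again the highest. This call was lost under 8 of 18 alternatives (adjusted p 0.0527 to 0.11), 6 of them leaving out 1 array (LEC replicate 2 or 4 or any BEC replicate), and it was 12.2-fold without LEC replicate 3.

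The other Foxf1 probe set did not separate the groups. That one (1423013_at) read 6.57, 3.29, 5.95 and 7.24 in LEC, against 6.75, 6.64, 5.22 and 6.44 in BEC (difference -0.50 ± 0.87, limma over all kept probe sets, adjusted p = 0.874), so the 2 probe sets disagree on size. Foxf2, the paralogue, read 5.11 ± 2.51 in LEC and 3.34 ± 0.42 in BEC (SD, n = 4 each) and did not pass (adjusted p = 0.533). FOXF1 is known from gut fibroblasts and muscle too, and the fibroblast sum was higher in LEC, at 475 to 8145, against 259 to 409 in BEC. None of the 11 fibroblast genes tested was called (median difference 2.53), although 7 of 18 alternatives called 1 to 4 of them higher in LEC, and 1 of 7 smooth muscle and pericyte genes was, Rgs5, whose signal in LEC was lower by at least 27.9-fold (limma, adjusted p = 0.00849). The rest of that smooth muscle and pericyte list went both ways without passing the test. Pdgfrb and Kcnj8 differed by 1.81 and 1.74, and Acta2, Tagln, Myh11 and Notch3 by -2.15, -2.29, -1.10 and -0.71. The part of fibroblasts and such muscle cells in the Foxf1 signal was not tested.

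Endothelial genes linked to FOXF1 in mouse lung were lower in LEC in 3 of 9 cases, and 0 were higher (median -1.18). Of all genes tested, 2.31% were called lower. Besides Flt1, also a marker in the check of the sort, the called ones were Cd34 and Cdh5. Cd34, a sialomucin of blood endothelium, was 12.5-fold lower (limma, adjusted p = 1.44e-04). Cdh5, the VE-cadherin gene, was 2.27-fold lower (limma, adjusted p = 0.0252, lost under 6 of 18 alternatives with values up to 0.319). Tek, Kdr, S1pr1, Pecam1, Pdgfb and Itgb3 did not pass, with differences between -3.03 and 1.15. A list of 9 genes of endothelium at large, which shares Cdh5 and Pecam1 with the FOXF1 list, had 2 lower in LEC (Cdh5 and Esam) and 0 higher, with a median of -0.72. Its summed linear signal was 10938 to 16930 in LEC, against 19168 to 29746 in BEC, and its part in the FOXF1-linked counts was not tested.

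Nkx2-3, the homeobox gene of gut vessels, was called lower in LEC at 1 of its 3 probe sets, and not at the one that stood for the gene. The one with the highest mean (1452528_a_at) read 7.83, 5.16, 5.96 and 5.43 in LEC, against 6.11, 6.80, 5.54 and 5.05 in BEC, with overlap and a difference of 0.22 (95% interval -1.43 to 1.87, limma, adjusted p = 0.94). Another (1425827_at) read 2.45, 2.37, 2.44 and 1.87 in LEC, against 7.72, 4.69, 5.97 and 6.96 in BEC. There all LEC arrays were below background and all BEC arrays above it, so the signal was at least 4.22-fold lower in LEC (fitted difference -4.05 ± 0.88, limma over all kept probe sets, adjusted p = 0.0179). The third (1427741_x_at), with a suffix for probes shared with other sequences, read 3.86, 4.50, -0.25 and 2.95 in LEC, against 5.80, 5.89, 3.13 and 2.61 in BEC, with overlap (difference -1.59, adjusted p = 0.652).

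The gene-level sign of Nkx2-3 therefore rests on which probe set is read. Averaging the 3 gave -1.81 (adjusted p = 0.193), and the sign of the brightest one also turned with equal array medians (-0.06), with equal hybridisation controls (-0.17), without LEC replicate 1 (-0.36) and without BEC replicate 4 (-0.06). The start window of Nkx2-3 is printed because it is the gut vessel factor of the set and 1 of its probe sets was above background in BEC alone. It holds 1 E-box and 2 CGTG, in capitals.
Nkx2-3 chr19:43612075-43612374, plus strand: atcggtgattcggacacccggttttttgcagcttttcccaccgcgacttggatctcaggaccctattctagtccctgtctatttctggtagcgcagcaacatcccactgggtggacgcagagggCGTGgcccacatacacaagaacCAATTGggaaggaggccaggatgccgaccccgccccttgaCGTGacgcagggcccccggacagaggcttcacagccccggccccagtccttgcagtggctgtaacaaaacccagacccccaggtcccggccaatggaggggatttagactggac
Madcam1, the gut addressin gene that is lost in vessels of mice without NKX2-3, read 1.91, 0.81, -0.34 and 0.34 in LEC, against 6.31, 6.02, 7.71 and 6.26 in BEC. No LEC array was above background, and it was at least 4.97-fold lower in LEC (limma, adjusted p = 0.00158, and 0.0516 with values raised to background).

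Foxo1 was bright in both cell types and was not called at any of its 4 probe sets. The brightest (1416983_s_at) read 11.18, 11.10, 11.14 and 10.78 in LEC, against 11.10, 9.96, 10.67 and 10.21 in BEC, a difference of 0.57 with a 95% interval of -0.14 to 1.27 (limma, adjusted p = 0.478) and the higher value in LEC in all 4 mice. A second (1416982_at) read 8.10, 9.02, 8.67 and 8.03 in LEC, against 6.65, 7.50, 6.97 and 6.32 in BEC. It was the only kept probe set of the 26 whose LEC values all lay above the BEC values, by 1.59 ± 0.54, but it did not pass (limma over all kept probe sets, adjusted p = 0.162). The remaining ones overlapped, one with 8.01, 7.84, 7.84 and 8.44 in LEC, against 7.02, 8.37, 8.58 and 8.16 in BEC, and the other with 6.65, 6.05, 6.54 and 6.95 in LEC, against 7.77, 5.83, 6.87 and 5.93 in BEC (differences 0.00 and -0.05). The paralogues Foxo3 and Foxo4 differed by -0.25 and -0.31 (adjusted p = 0.9 and 0.893). Of 18 FOXO-linked genes tested, 0 were called in either direction, with a median of -0.20. Nearest to the threshold were Ccng2, a cyclin-like gene (-2.38, adjusted p = 0.0505), and Klf2, the flow-induced Krüppel-like factor gene (-1.83, adjusted p = 0.056). Of 18 alternatives, 5 called Ccng2 lower and 2 called Klf2 lower (adjusted p 0.016 to 0.145 and 0.0192 to 0.18 over all 18).

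Foxp1 had 8 probe sets, 7 of which passed the filter, and none was called. The brightest (1435222_at) read 11.21, 10.67, 10.78 and 10.62 in LEC, against 10.52, 10.85, 10.40 and 8.96 in BEC (difference 0.64, 95% interval -0.25 to 1.53, limma, adjusted p = 0.54). The mean was higher in LEC at 7 of the 8, by 0.64 to 2.55, and lower by 0.22 at the remaining one. These probe sets read the same RNA of the same arrays and are not replicates of each other. The one with the largest difference (1421141_a_at) read 7.35, 7.99, 7.63 and 5.56 in LEC, against 5.69, 5.97, 5.09 and 1.58 in BEC (adjusted p = 0.242), and its groups overlapped through LEC replicate 4. The one that was lower on average (1421142_s_at) read 6.20, 6.48, 8.79 and 9.10 in LEC, against 8.34, 6.79, 8.29 and 8.05 in BEC, so LEC was lower in mice 1 and 2 and higher in mice 3 and 4. At all 8 probe sets of Foxp1 the groups overlapped. Its paralogue Foxp2 averaged 7.19 ± 0.95 in LEC and 4.53 ± 0.47 in BEC (SD, n = 4 each), without overlap, and stood just outside the threshold (difference 2.66, limma, adjusted p = 0.0527, under 0.05 in 4 of 18 alternatives).

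Tbx3 was dim, and lower in LEC on average at 4 of its 5 probe sets without passing the test. The brightest (1437479_x_at), with the suffix for probes shared with other sequences, read 4.88, 5.04, 2.91 and 3.40 in LEC, against 5.76, 6.89, 5.74 and 7.01 in BEC. The groups did not overlap, with only LEC replicate 2 above background in LEC and all BEC arrays above it, and all 4 mice had the lower value in LEC. The difference of -2.29 ± 0.78 gave an unadjusted p of 0.0113 and an adjusted p of 0.153 in limma. Of the others, 2 more passed the filter and differed by -1.18 and -2.75 (adjusted p = 0.645 and 0.203). The first of these read 6.07, 3.98, 2.85 and 4.31 in LEC, against 5.25, 6.74, 4.22 and 5.71 in BEC, and the second 3.63, 1.57, 4.88 and 4.81 in LEC, against 4.18, 6.80, 7.65 and 7.29 in BEC, both with overlap. The 2 that did not pass read 0.86 to 2.81 and -0.45 to 3.59 in LEC, against 2.24 to 6.06 and -0.62 to 4.03 in BEC. The T-box paralogue Tbx1, needed for lymphatic vessels in the mouse, read 9.82, 8.59, 9.73 and 8.53 in LEC, against 4.27, 5.50, 3.67 and 0.80 in BEC. It was at least 29.6-fold higher in LEC (limma, adjusted p = 0.00248).

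**Figure D2:**
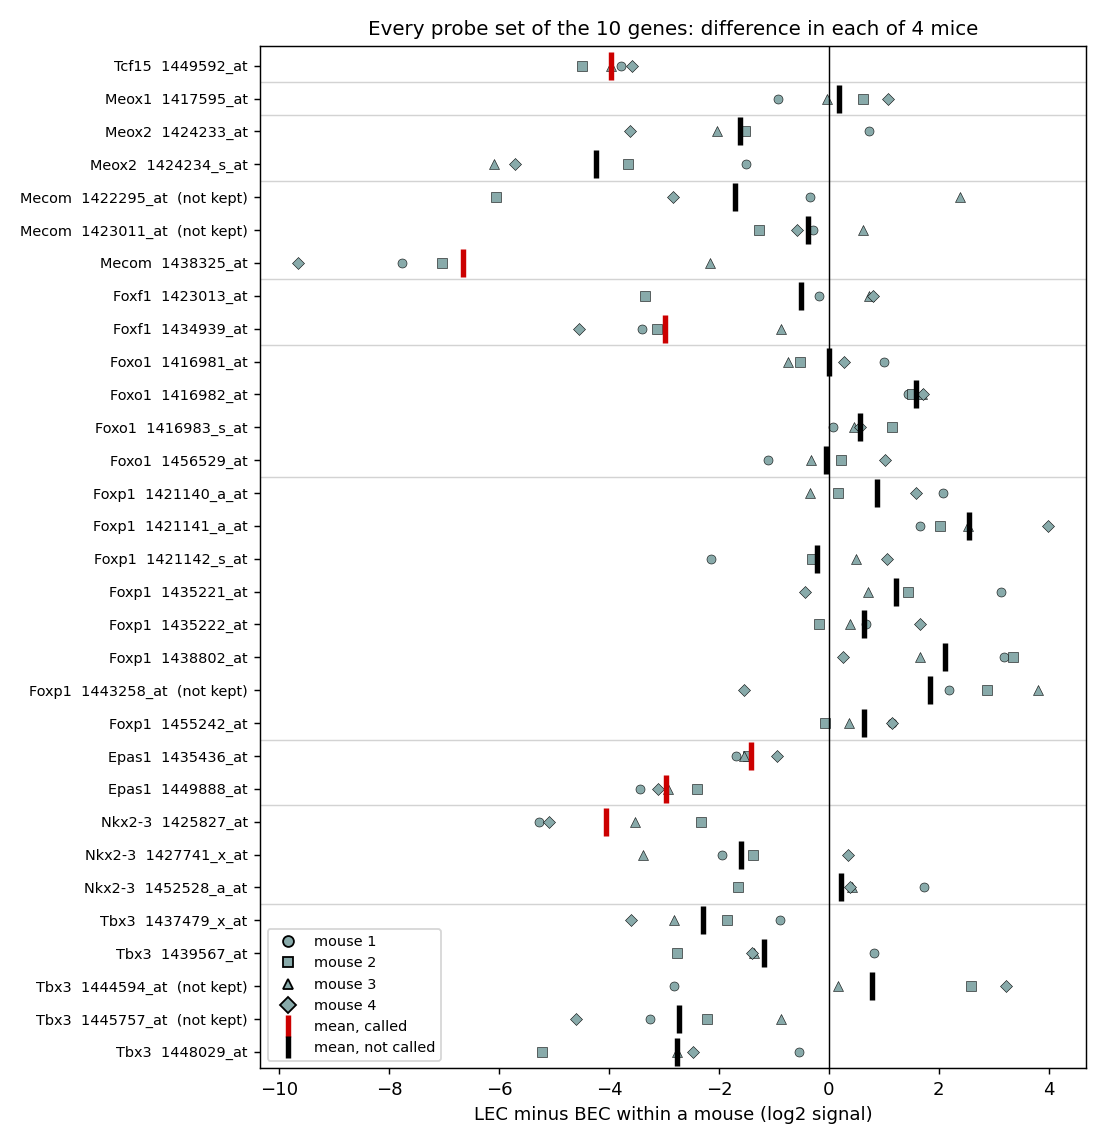
Difference LEC minus BEC within each mouse (marker shapes, horizontal axis, log2 signal) for all 31 probe sets (vertical axis), with the mean as a thick tick, red where limma called it over all kept probe sets. The 6 red ticks belong to Tcf15, Mecom, Foxf1, Nkx2-3 and both probe sets of Epas1, and all lie below 0.

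Read at every probe set, 6 of the 26 kept were called lower and 0 higher, where 3.70% of all 23980 kept probe sets were called, and 2.09% were called lower. They stood for 5 genes, those of the gene-level test and Nkx2-3. LEC values lay wholly under BEC values at 8 kept probe sets and wholly above at 1, against 4.93% and 4.78% of all kept probe sets. At the gene level the numbers were 5 and 0, against 5.19% of genes in each direction. Probe sets of a gene share its RNA, and the filter can keep a probe set through BEC alone, so these counts are descriptions.

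**Figure D3:**
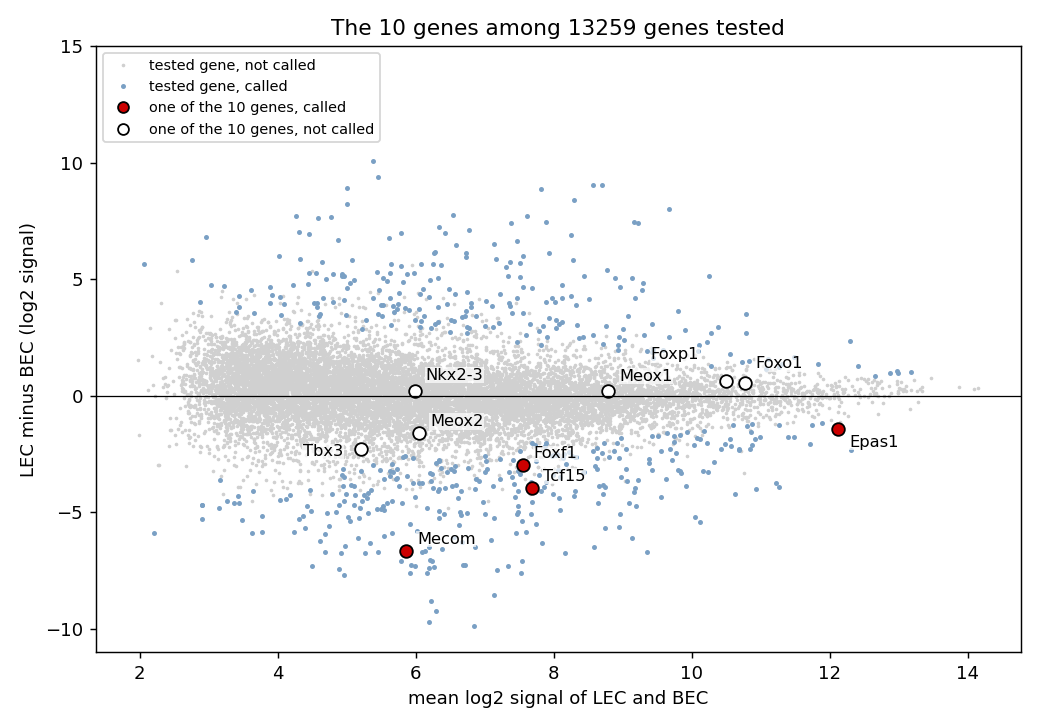
Difference LEC minus BEC (vertical axis, log2 signal) against mean log2 signal (horizontal axis) for the 13259 genes tested, with the 10 genes as large points. Epas1 is called at a difference of only -1.41 among the bright genes, whereas Tbx3 at -2.29 among the dim ones is not.

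Other members of the same gene families were read as well, where 2.31% of all genes tested were called lower and 1.76% higher. Of 16 paralogues tested (23 had a probe set), 1 was lower (Prdm16) and 1 higher (Tbx1), with a median of 0.37. Tcf21, Scx, Tcf24 and Tbx5 were below background on all 8 arrays. Of 10 dimer partners and inhibitors, 2 were lower and 0 higher (median -0.79). Those were the inhibitors Id3 (4.74-fold, limma, adjusted p = 0.0174) and Id4 (at least 5.42-fold, adjusted p = 0.0357), which block helix-loop-helix dimers from binding DNA. Id3 lost its call under 4 and Id4 under 8 of 18 alternatives (adjusted p up to 0.0856 and 0.121). The E-protein genes Tcf3, Tcf4 and Tcf12, whose products dimerise with TCF15, differed by -0.90, -0.17 and -0.06 and did not pass.

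**Figure D4:**
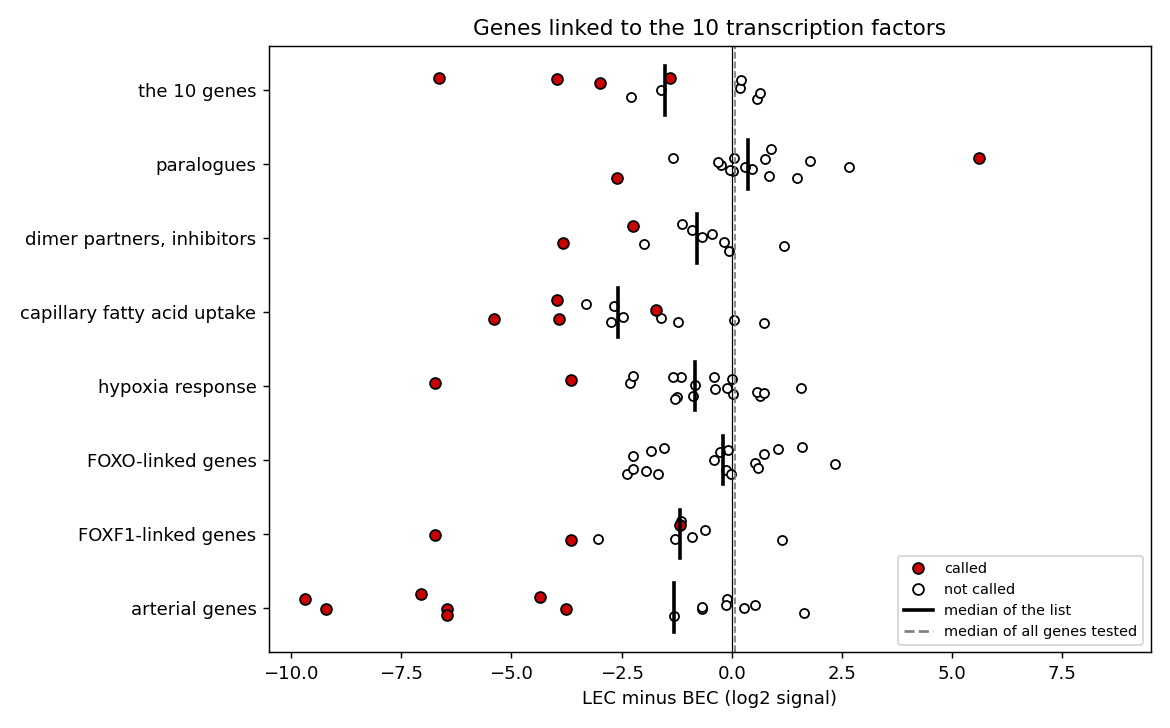
Difference LEC minus BEC (horizontal axis, log2 signal) of every tested gene in the lists linked to the 10 factors (vertical axis), red where called, with list medians as black ticks and the median of all genes tested (0.08) as a dashed line. Called genes lie below 0 in every list except for Tbx1 among the paralogues, and the FOXO list has none in the fit shown.

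The genes whose profile over the 8 arrays was most like that of each called factor were found by the root mean square difference of their values, each gene centred on its own mean. For Tcf15 they were Esam, an endothelial adhesion molecule (0.50 log2 units), Syne2, a nuclear envelope spectrin-repeat protein (0.52), and Rsad2, the interferon-induced gene of viperin (0.52). For Epas1 they were the transcription factor gene Ets2 (0.23), Fgd5, an endothelial exchange factor gene (0.27), and Pdlim5 (0.28). For Mecom they were Tlr4, the lipopolysaccharide receptor gene (0.62), Akr1c14, an aldo-keto reductase gene (0.77), and Pitpnm2 (1.02). Tlr4 shared the raised LEC replicate 3, with 0.86, 1.09, 6.36 and -1.28 in LEC, against 7.65, 8.72, 7.78 and 8.64 in BEC. For Foxf1 they were Rgp1 (0.52), Suclg2, a succinyl-CoA ligase subunit gene (0.57), and Tceanc2 (0.58). These are descriptions over arrays that share the split into LEC and BEC.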

How the data were processed

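Total RNA of cells sorted from digested mouse colon was amplified by a linear isothermal method, labelled with biotin and hybridised to single-colour expression arrays, per the labels' protocols. The deposited values are log2 signals, 1 column per array, and MAS5 is named in the submitters' processing notes with no version. On the linear scale the 2% trimmed mean was 100.00 on every array, while array medians ran from 3.85 to 4.75 on the log2 scale. No genome build is named in the sources used here.

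Probe sets were named from the 2016 platform annotation, and the gene numbers of 34741 of the 34945 probe sets with 1 gene were found in RefSeq with the same symbol. A gene was represented by its brightest probe set on average, and was tested where 4 or more of the 8 arrays exceeded their own 40th percentile. The 13259 genes left were tested by limma (3.58.1, R 4.3.3; lmFit, eBayes with intensity trend, cell type only, two-sided, Benjamini-Hochberg). A fit over all 23980 kept probe sets gave the values of the others. Replicates are separate mice, and p-values also carry amplification and array error. No detection p was used, and the number of arrays limits precision. Background was the 95th percentile of 27 Bacillus subtilis control probe sets on each array.

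The genes and lists were chosen with earlier results of these data known. Named genes are the 10 factors, Madcam1, and from each list up to 4 called genes per direction, with the 3 nearest profiles of each called factor; other list genes were named after their values were seen. LEC and BEC of a number come from the same mouse, per the series design. Correlations of their deviations from group means were 0.142, 0.0776, 0.181 and 0.051 for mice 1 to 4. Between LEC and BEC of different mice they ran from -0.148 to 0.0747. The scripts were tested on simulated data.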

Additional observations from a re-analysis of the deposited data

Results flagged for a closer look

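In 4 of 62 groups of 4 arrays, over the 31 probe sets, 1 array stood apart from the other three by Dixon's criterion, where chance alone gives about 5% of groups. Tcf15 was 6.57 in LEC replicate 1, against 5.33 to 5.51 in the other LEC arrays. The probe set of Nkx2-3 that was called had 1.87 in LEC replicate 4, against 2.37 to 2.45, all of them below background. The Foxp1 probe set that did not pass the filter had 0.42 in LEC replicate 4, against 4.26 to 4.80, and 0.82 in BEC replicate 3, against 1.92 to 2.07.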

How the results depend on the processing

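Over 18 alternatives Tcf15 was called throughout (-4.34 to -3.73, adjusted p up to 0.00595) and Mecom in all 17 that gave it a value (-8.20 to -4.10, adjusted p up to 0.0308); the mean of its probe sets did not pass the filter. The number of the 10 genes called was 4 in the fit reported, 2 with the mean of probe sets and 2 without the intensity trend, and 3 to 4 with 1 array left out. Foxf1 and Epas1 were lost without the trend (adjusted p = 0.0555 and 0.198), and Foxf1 with the mean of probe sets (-1.74, adjusted p = 0.11). Over all genes the number called was 540, and 352 to 556 with 1 array left out, the lowest without BEC replicate 2. With the mouse as a replicate block it was 534, and the same 4 of the 10 genes were called. Signs turned only for uncalled genes, Meox1 (equal array medians -0.09, equal hybridisation controls -0.20, and -0.27 to 0.62 with 1 array left out) and Nkx2-3 (-0.06, -0.17, mean of probe sets -1.81, and -0.36 to 0.53 with 1 array left out). Equal hybridisation controls were chosen after seeing the data; they and equal array medians moved the median of all genes to -0.31 and -0.20, and higher and lower calls to 123 and 280 and to 162 and 336, against 234 and 306. Of 612 counts by direction, over all genes and the lists, 574 stayed within 1.5 times the reported count. A count of 0 in both fits was scored as unchanged, as were all epithelial, leukocyte and enteric nerve counts. The total therefore says little about lists with called genes. Dimer partners called ranged from 0 to 2 over the alternatives, and arterial genes from 5 to 8. Signals below background limit Mecom, Meox2, Nkx2-3 and Tbx3.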

Other observations

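LEC replicate 1 held the highest LEC value at 13 of the 31 probe sets and BEC replicate 1 the highest BEC value at 14, while BEC replicates 3 and 4 held it at 3 each. After subtracting the array median the numbers were 9 for LEC replicate 1, 9 for BEC replicate 1, 8 for BEC replicate 3 and 7 for BEC replicate 4.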
